A study of Mus musculus with 6 samples.

Results

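Adipolin, encoded by Fam132a, and its relatives belong to the C1q/TNF-related proteins, which are secreted and assemble into multimers as adiponectin does. They have a globular C1q domain and, in most members, a collagen-like stretch. Adiponectin and adipolin are released by fat tissue and act on glucose and lipid handling, whereas erythroferrone, encoded by Fam132b, is released by red cell precursors and lowers the iron hormone hepcidin. KLF3 is a Krüppel-like factor whose C-terminal zinc fingers contact CACCC-type sequences in DNA and whose N-terminal domain recruits the corepressor CtBP, and Fam132a is known as a target of KLF3. The genes examined here were Fam132a, Fam132b, C1qtnf1 to C1qtnf7 and Adipoq, 10 genes in all, and their peaks were the rows of the deposited table of all peaks that carried any of these names. There were 8 such rows of 22188, spread over 4 of the 10 genes, while 42.6% of protein-coding gene symbols had a row.

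The cells were Klf3-/- murine embryonic fibroblasts (MEFs) of the C57BL/6 strain, so all 3 groups lacked endogenous KLF3. They carried a retroviral, V5-tagged construct: full length KLF3, ΔDL, in which AS replaces DL in the CtBP-contact motif PVDLT, or DBD, which retains the zinc fingers and a putative nuclear localization signal but not the rest of the N-terminus. Each construct was studied in a stable clonal line, so construct and clone cannot be told apart. Chromatin was immunoprecipitated with an anti-V5 antibody in 2 replicates per construct with paired inputs, which enter here only through the peak calling.

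The height of a peak is the number of sequencing tags in 400 bp, counted by the authors over both replicates together, set to a total of 100 M tags and given on the log2 scale. Heights therefore have no replicate error, and they are not corrected for input. KLF3 had a combined total of 23.3 M tags, ΔDL had 11.8 M and DBD had 16 M, so that 1 tag is worth 4.29, 8.45 and 6.23 normalized tags, respectively. The same peak's height often moved by less than 1 tag between the deposited lists, so a random part of up to 1 tag was taken to lie in each height and whole tags were taken beneath it. This reading rests on the values, since the rule is not given in the sources used here. The intervals given below are 95% counting intervals of those whole tags and rest on it too. They cover counting error only, and tags amplified from the same molecule would make them too narrow. Even coverage of the genome would give 15.6 normalized tags in 400 bp. Besides the deposited scale, heights were set to the same median over the 2334 rows listed for all 3 constructs, which moves every ΔDL height by −1.06 and every DBD height by −0.42 on the log2 scale. These are called scaled heights. They take the 2334 rows as equally high for the 3 constructs, which was not tested. Those rows are low for KLF3, with a median of 133 normalized tags beside 241 over all rows listed for KLF3. The replicate lists rest on 1.77 to 18.1 M tags each, with ΔDL replicate 1 the shallowest and KLF3 replicate 2 the deepest.

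The sequences beneath 4 of the peaks are shown, from mm9, + strand, which is also the strand of each gene. They are the peaks of the 2 FAM132 genes and the C1qtnf1 and C1qtnf7 peaks found in the most replicate lists, and each runs over the joined extent of the replicate peaks. Capitals mark matches, on either strand, to the CACCC-type cores of 6 letters that KLF proteins contact, which read ACACCC with an A at the start, CCACCC with a C there, and ACGCCC or else CCGCCC where the third letter is a G.
Fam132a promoter, chr4:155336175-155336325: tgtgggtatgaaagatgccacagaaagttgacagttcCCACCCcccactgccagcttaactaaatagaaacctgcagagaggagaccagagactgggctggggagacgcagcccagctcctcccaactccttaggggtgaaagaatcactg
Fam132b intron 1, chr1:93263482-93263658: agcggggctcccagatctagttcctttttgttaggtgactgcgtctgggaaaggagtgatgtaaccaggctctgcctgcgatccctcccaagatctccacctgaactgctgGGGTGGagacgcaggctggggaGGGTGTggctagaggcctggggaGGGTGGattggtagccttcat
C1qtnf1 intron 1, chr11:118291704-118291907: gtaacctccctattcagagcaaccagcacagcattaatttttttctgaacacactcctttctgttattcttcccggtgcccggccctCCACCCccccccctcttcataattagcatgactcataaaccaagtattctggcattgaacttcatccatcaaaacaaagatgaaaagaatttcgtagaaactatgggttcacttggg
C1qtnf7 upstream, chr5:43851290-43851436: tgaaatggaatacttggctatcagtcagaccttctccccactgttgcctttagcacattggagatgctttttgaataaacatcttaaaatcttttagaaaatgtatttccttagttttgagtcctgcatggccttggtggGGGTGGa

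The Fam132a peak was the only 1 of the 8 in a promoter. It spans chr4:155336050-155336450, its centre lies 171 bp upstream of the start of NM_026125, and its right edge reaches into the 5′ untranslated exon of the GENCODE gene at 155336427-155340738. KLF3 replicate 1 placed 15 tags in its peak there and KLF3 replicate 2 placed 28. The ΔDL and DBD replicate lists held no peak there, and the table lists it for KLF3 alone. The next gene upstream, Ube2j2, an E2 ubiquitin-conjugating enzyme gene, starts 18310 bp away.

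The Fam132a peak was highest for KLF3 and lowest for DBD. Full length KLF3 gave 254 normalized tags from 59 tags, with an interval of 193 to 326. ΔDL gave 162 normalized tags from 19 tags, with an interval of 96.7 to 251. On the deposited scale the 2 intervals overlap, and the log2 difference of −0.65 has a counting interval of −1.49 to 0.11, which takes in no change. On the scaled heights the difference was −1.71 with an interval of −2.55 to −0.95, which does not, so whether ΔDL lay below KLF3 at Fam132a depends on the scale. DBD gave 18.4 normalized tags from 2 tags, close to the 15.6 of even coverage and below a floor of 3 tags, so the size of its difference is known only within a wide interval. The deposited log2 difference between DBD and KLF3 was −3.79. From whole tags it was −4.34, with an interval of −7.42 to −2.43 that lies well below 0. DBD was also below ΔDL, by a log2 difference of −3.69 in whole tags with an interval of −6.83 to −1.64.

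In the KLF3 replicate lists, 17.9% and 29.5% of peaks had a higher score than the Fam132a peak. Its height of 254 normalized tags lay slightly above the median of 241 over all rows listed for KLF3. Promoter rows were higher as a class, with a median of 324 over the 4259 listed for KLF3, and 68.6% of these lay above Fam132a. Its ΔDL difference sat in the middle of these rows, whose median was −0.71, with 53.5% of them more negative. The median DBD difference of these rows was −3.02, which lies inside the interval at Fam132a. Of the 4451 other promoter rows, the 5 whose 3 log2 heights lay nearest to those of Fam132a were at Tsku, which encodes a secreted leucine-rich repeat protein, Rbpms2, which encodes an RNA-binding protein, Cpsf6, an mRNA cleavage factor gene, Dtwd1 and Ate1, an arginyltransferase gene. Tsku, for example, had 246, 156 and 18.9 normalized tags for KLF3, ΔDL and DBD. With only 2 DBD tags at Fam132a the counting error is larger than the distances, which were at most 0.19 log2 units, so neither the order of these genes nor their choice over other near rows is resolved.

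The Fam132b peak lies in intron 1 of 7 of NM_173395, at chr1:93263370-93263770, with its centre 563 bp downstream of the start. KLF3 replicate 1 called it on 8 tags and replicate 2 on 20, and no ΔDL or DBD list held it. KLF3 gave 181 normalized tags from 41 tags, with an interval of 126 to 238. DBD gave 64 normalized tags from 10 tags, with an interval of 29.9 to 115, so DBD was lower than KLF3 by a log2 difference of −1.50 (−2.66 to −0.47). ΔDL had 0 tags in the same 400 bp. The counting interval of the ΔDL height ran from 0 to 31.2 normalized tags, and that of the log2 difference from KLF3 lay below −2.43. A floor of 3 ΔDL tags over the 2 replicates, which lies inside that interval, would place ΔDL 6.94-fold below KLF3.

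At Fam132b the order of the mutants was thus the reverse of that at Fam132a, with 10 DBD tags against 0 of ΔDL. Among all rows, 10 of 22188 had 0 ΔDL tags, and 6 of the 4333 intron rows listed for KLF3 did. The interval of the ΔDL height at Fam132b, 0 to 31.2 normalized tags, takes in the 15.6 of even coverage. Why the row had 0 ΔDL tags was not tested. The neighbouring row 14.6 kb upstream, at Klhl30, had 31 ΔDL tags and 74 KLF3 tags. Downstream, an Ilkap row at 25.3 kb had 29 ΔDL and 24 KLF3 tags, and another at 31.8 kb had 9 and 64. Closer still, ΔDL replicate 2 held a peak of 9 tags at chr1:93258729-93258880, in the 3′ UTR of Klhl30, a kelch-like gene, at a place where KLF3 replicate 2 held a peak of 16 tags. That site carries the Fam132b name, lies 4198 bp upstream of its start, and was found in 1 replicate of each of the 2 constructs, so it is not a row of the table.

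**Figure D1:**
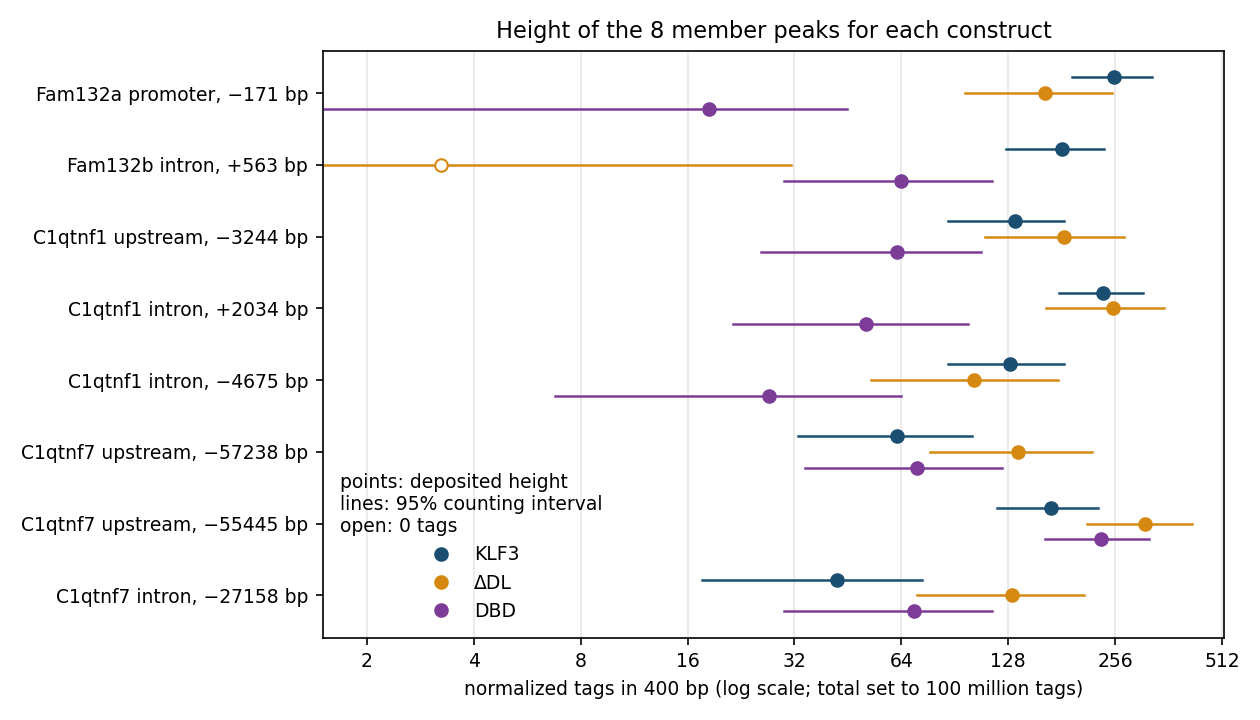
Height of the 8 peaks for KLF3, ΔDL and DBD, in normalized tags in 400 bp on a log scale. Points are the deposited heights, lines the 95% counting intervals of the whole tags (clipped at the left edge), and the open point, at Fam132b, marks 0 ΔDL tags. DBD lies to the left of KLF3 at Fam132a, Fam132b and C1qtnf1, whereas at C1qtnf7 KLF3 is the lowest of the 3 as deposited, which the scaled heights turn at 55445 bp for ΔDL and at 57238 bp for DBD.

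C1qtnf1 encodes CTRP1, a member made in fat tissue among others. It had 3 rows, all on chromosome 11. The highest lies in intron 1 of 3 of NM_001204129, at chr11:118291605-118292005, 2034 bp downstream of the start, and is listed for KLF3 and ΔDL. The KLF3 replicates called it on 13 and 17 tags, and the ΔDL replicates on 5 and 17. KLF3 gave 237 normalized tags (178 to 307) and ΔDL gave 252 (164 to 352). These 2 heights lie within each other's intervals, and the log2 difference of 0.09 has an interval of −0.65 to 0.73. On the scaled heights ΔDL was lower, at −0.97 (−1.71 to −0.33). DBD gave 50.9 normalized tags (21.5 to 98.3), lower than KLF3 by a log2 difference of −2.22 (−3.52 to −1.16).

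A further intron 1 peak of C1qtnf1, within NM_019959 at chr11:118299973-118300373, is listed for KLF3 alone. It lies 4675 bp upstream of another annotated start of the gene. The KLF3 replicates called it on 8 and 14 tags. KLF3 gave 130 normalized tags (86.8 to 184), ΔDL 103 (52.4 to 177) and DBD 27.1 (6.79 to 63.8). The deposited ΔDL height again overlapped that of KLF3, with a log2 difference of −0.34 (−1.44 to 0.66), but on the scaled heights it was lower, at −1.40 (−2.50 to −0.40). The DBD height did not, with a log2 difference of −2.26 in deposited heights and an interval of −4.33 to −0.86.

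The third C1qtnf1 row lies in intergenic sequence 3244 bp upstream of the start, at chr11:118286327-118286727, and is listed for ΔDL. The ΔDL replicates called it on 5 and 9 tags. KLF3 replicate 2 also held a peak, of 13 tags, over the left edge of the interval, and KLF3 replicate 1 held none. KLF3 gave 133 normalized tags (86.8 to 184), ΔDL 184 (110 to 271) and DBD 62.2 (25.7 to 107). ΔDL minus KLF3 was 0.46 (−0.41 to 1.32), and −0.60 (−1.47 to 0.26) on the scaled heights, so the row's listing for ΔDL alone did not go with a height that was distinguishable from KLF3 on either scale. DBD minus KLF3 was −1.10 (−2.46 to −0.09), the smallest of the 5 DBD differences below 0 at Fam132a, Fam132b and C1qtnf1. A row of another name, Gm11747, lies within 10 kb of C1qtnf1 at chr11:118317430-118317830 and is listed for DBD. The DBD replicates called it on 9 and 8 tags, and KLF3, ΔDL and DBD gave 89.9, 174 and 130 normalized tags. It is not counted among the 8 rows.

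C1qtnf7 had 3 rows as well, none of them near its start, and here the heights ran differently. The peak at chr5:43851163-43851563 lies in intergenic sequence 55445 bp upstream and was the only 1 of the 8 called in all 6 replicate lists. KLF3 called it on 18 and 25 tags, ΔDL on 14 and 26, and DBD on 14 and 16. KLF3 gave 169 normalized tags (119 to 229), ΔDL 311 (213 to 421) and DBD 234 (162 to 318). ΔDL was higher than KLF3 by 0.88 on the log2 scale (0.17 to 1.55), a difference that turned to −0.18 (−0.89 to 0.49) on the scaled heights, whereas DBD minus KLF3 was 0.47 (−0.23 to 1.15). In the DBD list of intergenic rows it stood high, with 8.29% of 2991 rows above it.

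The other C1qtnf7 peaks are listed for ΔDL alone. At chr5:43849370-43849770, 57238 bp upstream and within a MIR repeat, the calls rested on 6 and 11 ΔDL tags. KLF3 gave 62.2 normalized tags (32.8 to 101), ΔDL 136 (77.3 to 220) and DBD 71.0 (34.2 to 123). In intron 1 of 2 of NM_001135172, at chr5:43965803-43966203, the calls rested on 5 and 11 ΔDL tags. KLF3 gave 42.2 (17.6 to 73.3), ΔDL 132 (70.9 to 209) and DBD 69.6 (29.9 to 115). ΔDL minus KLF3 was 1.13 (0.04 to 2.32) at the former and 1.64 (0.43 to 3.09) at the latter, and the DBD intervals took in 0 at both. On the scaled heights the ΔDL differences were 0.07 (−1.02 to 1.26) and 0.58 (−0.63 to 2.03), which take in no change, and neither reached 2-fold. The nearest other protein-coding gene, Cc2d2a, starts 87615 to 204048 bp from these 3 peaks.

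**Figure D2:**
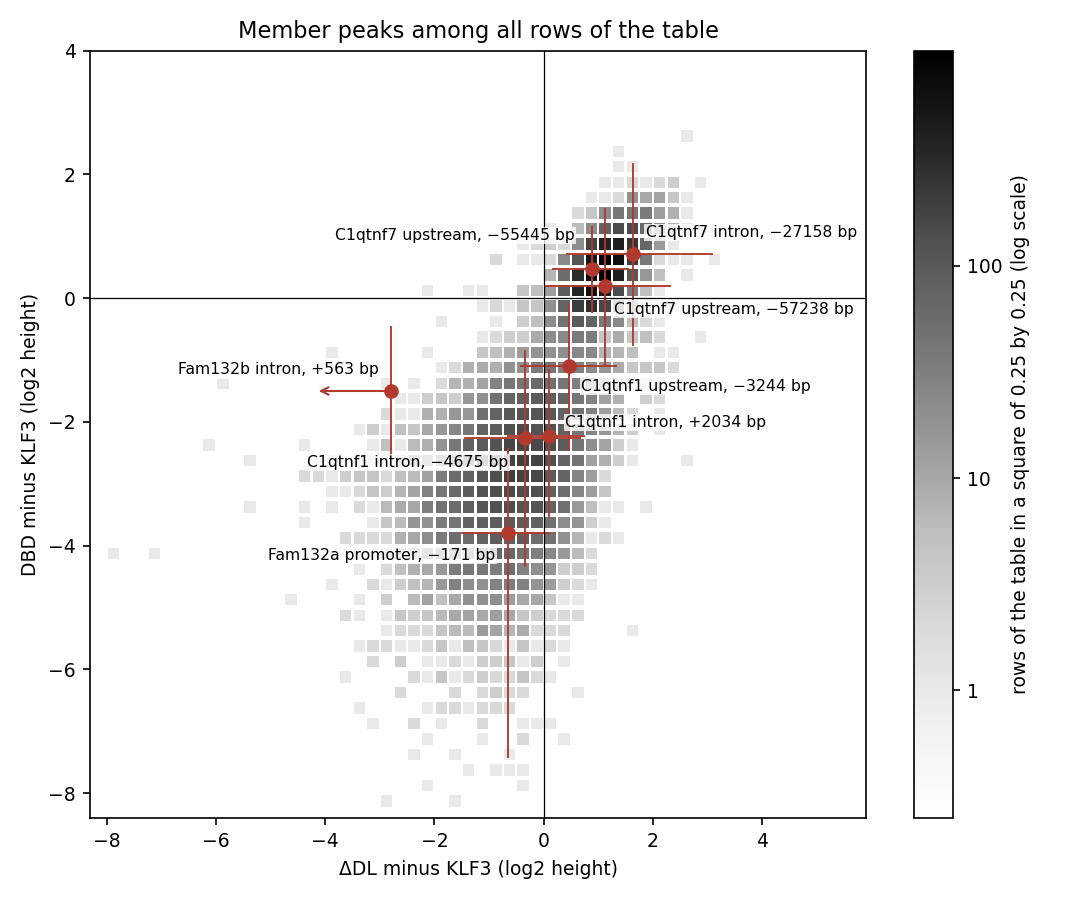
Log2 height difference from KLF3 for ΔDL (horizontal axis) and DBD (vertical axis). Grey squares count all 22188 rows on a log colour scale. Red points are the 8 peaks of the adipolin and C1q/TNF-related genes with 95% counting intervals. The arrow marks the Fam132b peak, placed by a floor of 3 ΔDL tags, while its ΔDL counting interval reaches up to −2.43. The 3 C1qtnf7 peaks lie in the upper right, where both mutants are higher than KLF3 as deposited (scaled heights turn ΔDL to −0.18 at 55445 bp and DBD to −0.23 at 57238 bp), and the other 5 lie below 0 on the DBD axis under both scales.

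Taking the 8 rows by a 2-fold change in deposited height, DBD was lower than KLF3 at 5 and higher at 0, where 52.6% of all rows were at least 2-fold lower and 3.27% at least 2-fold higher. ΔDL was at least 2-fold lower at 1, the Fam132b peak, and at least 2-fold higher at 2, both at C1qtnf7, where 14.8% and 28.8% of all rows were lower and higher. These shares are near those of all rows. On the scaled heights ΔDL was at least 2-fold lower at 3 of the 8 and higher at 0, where 42.9% and 0.397% of all rows were. DBD was lower at 5 and higher at 0 on them, where 53.7% and 0.428% were. The median log2 difference of the 8 was 0.28 for ΔDL and −1.30 for DBD, beside 0.42 and −1.45 over all rows. A row listed for a construct had to be called in both of its replicates, and the direction goes with the listing. Over rows listed for KLF3 the median was −0.35 for ΔDL and −2.54 for DBD, and the 5 such rows here had −0.34 and −2.22. Rows listed for ΔDL but not KLF3 had a median ΔDL difference of 1.11 in intergenic sequence and 1.09 in introns, and the 3 such rows here had 1.13.

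The sign of the ΔDL difference thus depends on the scale at the C1qtnf1 peaks 2034 bp downstream and 3244 bp upstream and the C1qtnf7 peak 55445 bp upstream. At the other rows the sign held, and at Fam132b ΔDL was lower on both scales. The C1qtnf7 peak 55445 bp upstream is 1 of the 2334 rows that set the scaled heights, whose medians were 133, 276 and 177 normalized tags for KLF3, ΔDL and DBD as deposited. The scaled DBD differences at C1qtnf7 were −0.23, 0.05 and 0.30, in order along the chromosome. The DBD falls at Fam132a, Fam132b and the 3 C1qtnf1 peaks kept their direction, at −1.52 to −4.21.

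Replicate support was counted from the 6 lists. Both KLF3 replicates held a peak at 5 of the 8 rows and both ΔDL replicates at 5, where 64.1% and 55.9% of all rows did. In DBD 1 row did, that of C1qtnf7 55445 bp upstream, where 22.4% of all rows did. Over whole replicate lists, peaks with the names of these genes made up 2.99 and 4.19 per 10000 in the KLF3 lists, 2.91 and 3.07 in those of ΔDL, and 1.09 and 1.23 in those of DBD. Each DBD list held 1 such peak, at the C1qtnf7 site 55445 bp upstream, against 8 and 10 in the KLF3 lists. The DBD mean of 1.16 ± 0.1 (SD, n = 2) was below the KLF3 mean of 3.59 ± 0.849 (SD, n = 2), and both DBD lists lay below both KLF3 lists. With 1 peak in each, the DBD SD reflects only the lengths of the lists, 9156 and 8105 peaks. In the better-scoring 50% of each list the direction of the means turned, with 2.18 and 2.47 per 10000 for DBD against 2.24 and 1.68 for KLF3. These values rest on 1 peak in each DBD list and on 3 and 2 in the KLF3 lists. Over the whole lists a two-sided exact permutation test of DBD against KLF3 gave p = 0.333, the smallest that 2 against 2 lists allow. The ΔDL mean of 2.99 ± 0.113 (SD, n = 2) differed from that of KLF3 by less than the spread between replicates (p = 0.667, exact permutation test). With Benjamini-Hochberg adjustment over the 2 exact permutation tests the values were 0.666 and 0.667.

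The replicate lists held 18 sites with the names of these genes, of which 8 are the rows above and 10 are not in the table. Of the 10, 8 were found in a single list. C1qtnf1 had a site in its promoter, 938 bp upstream of the start, with 13 tags in KLF3 replicate 2 only, and another 4641 bp upstream with 11 tags in ΔDL replicate 2 only. C1qtnf7 had a site in an A-rich simple repeat 72095 bp upstream, with 6 tags in KLF3 replicate 1.

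C1qtnf3 and C1qtnf6, which encode CTRP3 and CTRP6, were named only in replicate lists. C1qtnf6 had 3 sites close together at its start on chromosome 15, each in a single list. KLF3 replicate 2 held 19 tags at chr15:78359909-78360051 in the 5′ UTR, and ΔDL replicate 2 held 9 tags 320 bp and 8 tags 1148 bp upstream of the start. C1qtnf3 had sites 10201 and 31027 bp upstream with 8 tags each in KLF3 replicate 1. A C1qtnf3 site in an ERVK long terminal repeat 36563 bp upstream was found in KLF3 replicate 2 and in ΔDL replicate 2, with 14 and 8 tags. All of these fall short of the requirement of a peak in both replicates of a construct. KLF3 replicate 2 and ΔDL replicate 2, which supplied most of them, are the deeper list of each pair.

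**Figure D3:**
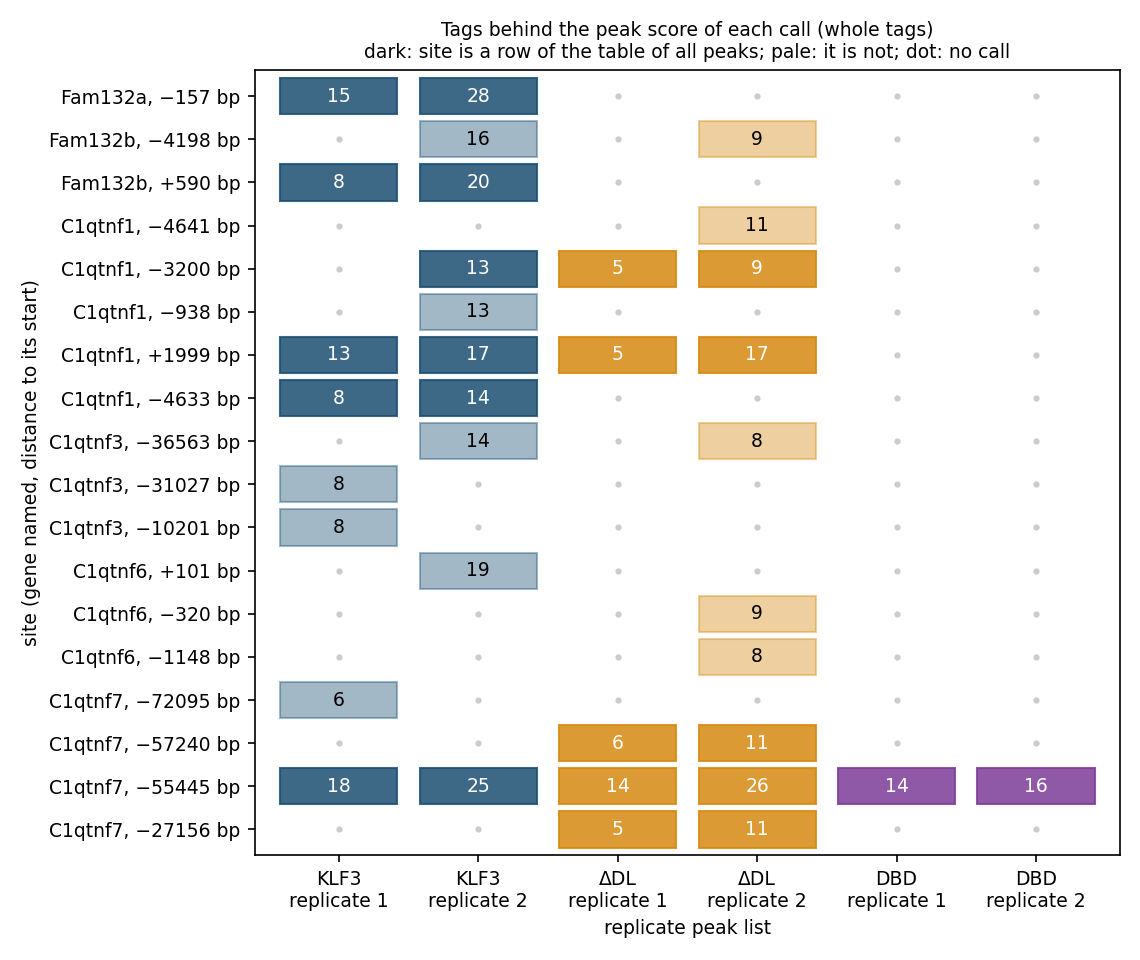
The 18 sites named for the adipolin and C1q/TNF-related genes (rows, with the distance of the strongest call to the start) in the 6 replicate lists (columns). Numbers are the whole tags behind the peak score, dark cells are sites that are rows of the table, pale cells are not, and dots mark no call. DBD was called only at C1qtnf7 55445 bp upstream, with 14 and 16 tags.

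C1qtnf2, C1qtnf4, C1qtnf5 and Adipoq, the adiponectin gene itself, had no peak by name in any list. No row of any name lay within these genes or 10 kb around them. The nearest row lay 48.0 kb from the start of C1qtnf2, at Pttg1, 19.0 kb from C1qtnf4, at Kbtbd4, 22.4 kb from C1qtnf5, at Usp2, and 39.1 kb from Adipoq, at Eif4a2. In the replicate lists, the surroundings of C1qtnf5 held a single peak, of 13 tags in KLF3 replicate 2 at the Rnf26 promoter, and those of the other 3 held none. Since the peak lists give no tags where no peak was called, these 4 genes have no height.

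Core matches were counted in 100 bp around the centre of each row. Of the 8 rows, 4 held a match, where 40.4% of all rows did. The 4 were the Fam132a promoter, the Fam132b intron and both intron 1 peaks of C1qtnf1, and all 4 are listed for KLF3. Of all rows listed for KLF3, 57.7% held a match, and 84.6% of those in promoters did. None of the 3 rows listed for ΔDL alone held a match within 100 bp, where 7.07% of intergenic and 11.3% of intron rows listed for ΔDL and not KLF3 did. The C1qtnf7 peak 55445 bp upstream held none either, where 9.30% of the rows listed for all 3 constructs did. In the whole 400 bp, 6 of the 8 rows held a match, where 60% of all rows did, and the 23 matches were spread unevenly.

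In the Fam132a sequence printed above, the single match is CCACCC on the + strand at bases 38 to 43, 35 bp left of the row's centre. The whole row held 11 matches, of which 9 were CCGCCC in a tract 91 to 146 bp right of the centre, towards the start site. This tract lies beyond the right edge of both replicate peaks. In the Fam132b sequence 3 matches lie on the - strand, read as GGGTGG at bases 112 to 117 and 157 to 162 and as GGGTGT at bases 134 to 139. The C1qtnf1 sequence holds CCACCC at bases 88 to 93, 11 bp left of the row's centre, where the replicate peaks of KLF3 and ΔDL overlap. The C1qtnf7 sequence holds CCACCC on the - strand at bases 141 to 146, at the edge of the replicate peaks and 70 bp from the centre.

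**Figure D4:**
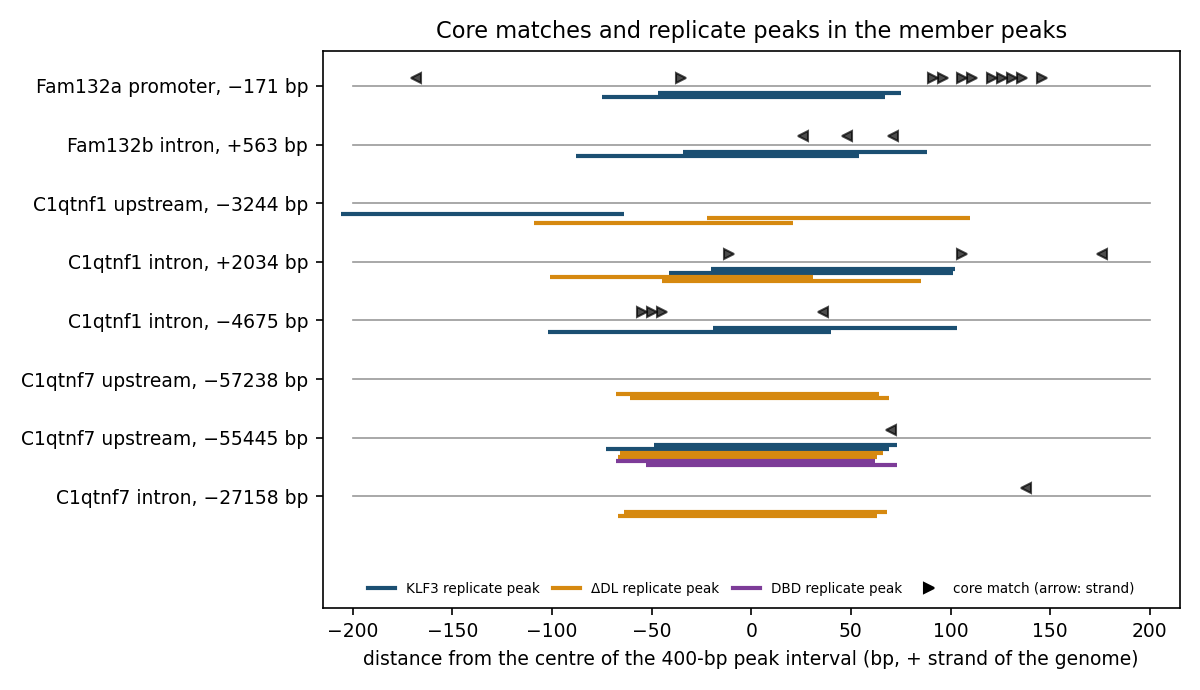
Core matches (arrowheads, pointing right for the + strand) and replicate peaks (coloured bars) in the 8 rows, by distance in bp from the centre of the 400-bp interval. The Fam132a promoter holds 11 matches with 9 of them between 91 and 146 bp, and the 3 rows listed for ΔDL alone hold 1 in all, at 138 bp in the C1qtnf7 intron.

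Base composition and conservation varied among the 8 rows, also within a type of region. The Fam132a row had a G+C content of 59.6%, beside a median of 63.8% over promoter rows listed for KLF3. The Fam132b and the 2 intron C1qtnf1 rows had 56.1%, 51.9% and 53.6%, above the median of 46.9% of intron rows listed for KLF3, whereas the C1qtnf7 intron row had 42.9%. The intergenic rows had 47.9% at C1qtnf1 and 42.1% and 45.4% at C1qtnf7. The mean PhastCons score, from 0 for low to 1 for high conservation, was 0.13 at Fam132a, where the median of KLF3 promoter peaks was 0.22. Among the intron rows it was 0 at Fam132b, 0.24 and 0.01 at C1qtnf1 and 0.02 at C1qtnf7, where KLF3 intron peaks had a median of 0.10 and those of ΔDL 0.05. At the C1qtnf7 peak called in every list it was 0.12, where the median of DBD intergenic peaks was 0.02, and at the other intergenic rows it was 0.03 at C1qtnf1 and 0.02 at C1qtnf7.

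Genes around this family were taken as 3 lists. As above, the shares of all rows at least 2-fold lower and higher were 14.8% and 28.8% in ΔDL and 52.6% and 3.27% in DBD. No share was counted over all rows at 4-fold. The log2 DBD difference had a lower quartile of −2.89 over all rows and a median of −2.54 over those listed for KLF3. A fall of at least 4-fold in DBD was thus common, and the rows named for it below are not set apart by it. Of 21 other genes with a C1q domain, 11 had 28 rows, 19 of them intergenic, with median log2 differences of 0.94 for ΔDL and 0.37 for DBD. Of these rows, 3 were at least 2-fold lower and 11 at least 2-fold higher in ΔDL, and 8 were lower and 3 higher in DBD. On the scaled heights 8 were lower and 0 higher in ΔDL, and 9 were lower and 1 higher in DBD. The highest KLF3 height was in intron 1 of Col8a1, a collagen VIII chain gene, with 434, 265 and 103 normalized tags for KLF3, ΔDL and DBD. Rows at least 4-fold lower in DBD were at Col8a1, with 3, and at Col8a2, C1ql4, Emilin2 and C1qc, with 1 each. The Col8a2 row in intron 2 of 3 had the most negative deposited differences, −4.29 for DBD and −2.08 for ΔDL. Its DBD height of 14.4 normalized tags, like the 14.6 at the Emilin2 promoter, lies below the floor of 3 tags, 18.7. The size and order of these DBD differences are thus not resolved. A row at Otol1, an otolith matrix gene, was 2.00 higher in ΔDL on the log2 scale as deposited. It rests on few tags, with 23.6 normalized tags in KLF3 and 94.4 in ΔDL.

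Of 12 genes for receptors and handling of adiponectin-type ligands, 7 had 14 rows, with a median difference of 1.11 in ΔDL and of 0.46 in DBD. ΔDL was at least 2-fold higher at 8 and lower at 0, and DBD was lower at 4 and higher at 2. With scaled heights, ΔDL was higher at 0 and lower at 3, and DBD was lower at 4 and higher at 0. The 4 rows at least 4-fold lower in DBD were at Cdh13, which encodes the adiponectin-binding T-cadherin, the promoter of Erp44, which encodes a chaperone that retains adiponectin in the secretory pathway, the adiponectin receptor gene Adipor2, and the promoter of Prkaa1, an AMPK catalytic subunit gene. Their ΔDL differences ran from −0.45 to 0.11. The Cdh13 peak in intron 1 was the highest in KLF3, with 407, 352 and 41.1 normalized tags.

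Of 10 other secreted adipokine genes, 3 had 7 rows, whose median difference was 0.15 in ΔDL and −2.35 in DBD. In ΔDL 1 row was at least 2-fold lower and 2 were higher, both named Nampt, and in DBD 4 were lower and 0 higher. With scaled heights 3 were lower and 0 higher in ΔDL, and 5 were lower and 0 higher in DBD. The promoter of Nampt, which encodes an NAD synthesis enzyme also found outside cells, was highest in KLF3 with 545, 242 and 66.3 normalized tags. The remaining rows at least 4-fold lower in DBD were 2 downstream of Apln, the apelin gene, and 1 at Serpina12, the vaspin gene. Genes with a row made up 52.4%, 58.3% and 30% of the 3 lists, beside 42.6% of protein-coding symbols.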

How the data were processed

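ChIP-seq of 3 constructs in 2 replicates each was used through 6 lists of replicate peaks, 3 lists of merged peaks and a table of all peaks. A record stands for the pair of replicates, which the list names tell apart. Per the submitters' processing notes the tools were FastQC 0.10.1, Bowtie2 2.0.0, SAMtools 0.1.18 and HOMER 4.1 on mm9. The authors called peaks on each replicate against its input and took as peaks of a construct those that overlapped between replicates. The signal deposited as a replicate's peak score is its tags in the peak per 100 M tags. Heights are log2 values of tags in 400 bp, which the authors counted over both replicates. The G+C fraction and the mean PhastCons score of each interval are as deposited. G+C content over other rows was computed from the mm9 genome, which gave the deposited value within 1 base for 14113 of 14115 KLF3 peaks and for every ΔDL and DBD peak.

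The members and gene lists were chosen with earlier results of these data known. Every row with a member's name was named, then replicate-list sites of members, and in each other list the row highest in KLF3 and any at least 4-fold apart (where fewer than 10). A gene of the adipokine list is not reported here. Scores of a replicate were whole multiples of a step (100% within 0.06), which gave its tags. Of 10820 KLF3 peaks with the same interval in the merged list and the table of all peaks, 3978 had identical heights, and the others moved mostly by less than 1 tag (99th percentile 0.991 tags for heights below 8), so whole tags were taken beneath a random part of up to 1 tag. That part is inferred from these values and is not given in the sources used here. Ratios have exact binomial intervals and single heights exact Poisson intervals at 95%. For replicate lists the exact permutation test was two-sided. As no list gives each replicate's counts at every site, a count model could not be used. Functions were tested on simulated data. Annotation beyond the deposited one is GENCODE on the same build. The tools were scipy 1.17.1, numpy 2.4.6, matplotlib 3.10.9, pandas 2.3.3 and Python 3.11.15.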

Additional observations from a re-analysis of the deposited data

How the results depend on the processing

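Over 12 results, 36 values under other settings and 6 under a setting chosen after seeing the data were computed, of which 34 stayed within 1.5 times, within the counting interval or, for peaks per 10000, in the same direction, 7 moved further and 1 reversed. When the median of the peaks shared by all 3 constructs was made equal, the rows at least 2-fold lower in ΔDL rose from 1 to 3, those higher fell from 2 to 0, and the Fam132a difference of ΔDL moved from −0.65 to −1.71. At a 1.5-fold threshold, 2 rows were lower and 3 higher in ΔDL, whereas 5 were lower and 1 higher in DBD. No share was counted over all rows at 1.5-fold, so these counts cannot be set against a background. With only the better-scoring 50% of every replicate list, 2 rows were called in both KLF3 replicates. In both ΔDL replicates 1 row was called, and in both DBD replicates 1 as before. The share of all rows called in this way was not counted within the better-scoring 50%. There the difference in peaks per 10000 between DBD and KLF3 reversed from −2.43 to 0.368. Each DBD list kept its 1 peak in that 50%, whereas the KLF3 lists kept 3 of 8 and 2 of 10. Why fewer of the KLF3 peaks were kept was not tested. Leaving out a replicate gave 5 to 6 rows for KLF3, 5 for ΔDL and 1 for DBD, and differences in peaks per 10000 of −1.12 to −0.0822 for ΔDL and −2.96 to −1.90 for DBD. With the replicate number as a block the differences stayed at −0.603 and −2.43, with p = 0.500 in an exact sign-flip permutation test, the smallest it can give. The numbers mark no shared batch in the labels, and with 1 value per list no pairing could be checked. Subtracting the tags of even coverage gave −0.70 for ΔDL and −6.44 for DBD at Fam132a. The DBD value is not resolved. Its deposited height of 18.4 is just above the 15.6 subtracted, and its 2 whole tags lie below that. An overlap of 200 bp was not run, since the widest replicate peak is 143 bp.

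Depth limits these values: 1 tag of ΔDL is worth 8.45 normalized tags, ΔDL replicate 1 rests on 1.77 M tags, and a floor of 3 tags stands for 12.9 normalized tags in KLF3, 25.3 in ΔDL and 18.7 in DBD. The DBD height at Fam132a lies below that floor.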
